A study of Mus musculus with 30 samples.

Results

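Chemokine receptors are the cell-surface receptors that steer blood cells along gradients of chemokines, small secreted proteins. The 7 mouse receptor genes described here are Cxcr4, Cxcr2, Cxcr3, Ccr1, Ccr2, Ccr7 and Cx3cr1, out of 50686 genes counted in each RNA library. They were taken by name, after matching each gene ID without its version to its mouse symbol, and all 7 were found. The libraries come from HPC7 and HPCLSK, a pair of mouse haematopoietic progenitor lines grown with stem cell factor and fetal calf serum and given no further treatment. Each line had been transduced with a retroviral vector encoding STAT3, STAT3 Y640F or no STAT3 (the empty vector, labelled with its dsRed marker), so that all 6 groups carry a vector. STAT3 is the transcription factor activated by cytokines such as IL-6, and Y640F is an activating substitution in its SH2 domain. HPC7 is labelled with strain 129SV in these RNA samples and HPCLSK with C57BL/6N, and HPCLSK was grown on agarose-coated plates. The 18 libraries form 6 groups of 3. The series text calls the 3 libraries of a group technical replicates, so the p-values measure only the spread between such libraries of 1 transduced line. Line, strain, plates and sequencing run change together and cannot be told apart.

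All members are G-protein-coupled receptors with 7 membrane-spanning helices that signal mainly through Gi proteins to integrins, PI3-kinase gamma and the actin cytoskeleton. Cxcr4 binds Cxcl12 and holds stem and progenitor cells in the bone marrow, whereas Cxcr2 binds Cxcl1, Cxcl2 and related chemokines and draws neutrophils out of it. Ccr2 is the receptor for Ccl2 and Ccl7 that lets monocytes leave the marrow, Ccr1 binds Ccl3, Ccl5, Ccl6 and Ccl9 on myeloid cells, and Cx3cr1 binds membrane-bound or shed Cx3cl1 on monocytes and macrophages. Cxcr3 binds Cxcl9, Cxcl10 and Cxcl11 and is best known from T and NK cells, and Ccr7 binds Ccl19 and Ccl21 and guides T cells and dendritic cells to lymph nodes.

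The stretch just upstream of the RefSeq start is shown for the 3 genes whose response to STAT3 or Y640F differed most plainly between the lines and whose stretch lay outside all counted exons. Sequences are from RefSeq (GRCm38.p6), 250 to 11 bases upstream of the start, 5′ to 3′ on the gene's strand. Capitals mark every match to the 4 motifs searched on both strands.
Cxcr4 (chr1:128592310-128592549, minus strand): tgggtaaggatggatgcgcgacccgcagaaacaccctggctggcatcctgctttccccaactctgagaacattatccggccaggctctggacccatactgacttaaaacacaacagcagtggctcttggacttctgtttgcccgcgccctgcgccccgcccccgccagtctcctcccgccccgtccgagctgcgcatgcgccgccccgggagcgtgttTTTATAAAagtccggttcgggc
Cxcr2 (chr1:74153744-74153983, plus strand): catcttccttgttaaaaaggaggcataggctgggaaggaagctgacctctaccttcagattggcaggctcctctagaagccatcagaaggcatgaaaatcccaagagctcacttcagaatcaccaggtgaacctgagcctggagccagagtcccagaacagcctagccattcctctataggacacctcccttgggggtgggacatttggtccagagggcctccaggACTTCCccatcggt
Ccr1 (chr9:123968703-123968942, minus strand): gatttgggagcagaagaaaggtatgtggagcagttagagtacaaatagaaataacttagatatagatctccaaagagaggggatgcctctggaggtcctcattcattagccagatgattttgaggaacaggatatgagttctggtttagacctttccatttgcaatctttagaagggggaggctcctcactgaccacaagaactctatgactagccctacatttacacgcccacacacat
Of the 7 members, 6 were matched to a promoter entry in RefSeq, namely all but Ccr7. These windows lie upstream of the RefSeq start, but in the annotation used for counting 240 of the 240 bases for Cx3cr1, 238 for Ccr2 and 112 for Cxcr3 fell in exons, so 3 of the 6 are partly or wholly transcribed in that annotation. The STAT motif TTCNNNGAA, which reads the same on both strands, was found in 0 of these 6 windows and in 6.77% of the 32851 mouse windows of the same length. The Cxcr4 window held TATAAA and, overlapping it, TTTATA on the other strand, with first bases 30 and 32 bases upstream of the start, and 12.1% of all windows held such a match. The GATA motif AGATAA or TTATCT occurred once, in the window of Ccr2, 97 bases upstream of the RefSeq start and mostly exonic in the counting annotation, against 9.74% of all windows. The ETS motif GGAAGT or ACTTCC occurred in Cxcr2, 24 bases upstream, and in Cxcr3, 230 and 16 bases upstream, against 18.7% of all windows. No capitals appear in the Ccr1 window, since none of these letter strings lies in it. A match is a string of letters and was not tested as a binding site.

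Each library held 9537258 to 38556669 counts in all. At these depths 3 counts equal 0.0778 to 0.315 CPM, the counts scaled to a common library total. All CPM are scaled by edgeR's TMM factors over all 18. Stat3 RNA, which checks the labels but does not separate the vector's copy from the cell's own, averaged 225 ± 10.1, 996 ± 17.1 and 669 ± 21.0 CPM (SD, n = 3) in HPC7 with empty vector, STAT3 and Y640F. In HPCLSK it averaged 355 ± 12.4, 599 ± 42.2 and 1901 ± 45.0 CPM, so the order of STAT3 and Y640F was opposite in the lines. All 12 progenitor markers listed, such as Kit and Cd34, reached 1 CPM in every group. Their summed CPM ran from 3398 to 3816 over the HPC7 libraries. In HPCLSK it was 5667 to 6095 with empty vector, 4984 to 5386 with STAT3 and 3574 to 3965 with Y640F, where mean Cd34 was 983 CPM beside 2345 with empty vector. Within HPCLSK, summed CPM of 10 mast cell, basophil and eosinophil genes, of which Cpa3 was the highest, was lowest with Y640F. It was 1071 to 1486 with Y640F, 2965 to 3140 with STAT3 and 4069 to 5690 with empty vector. In HPC7 this sum was lower still, at 325 to 456 with empty vector, 356 to 367 with STAT3 and 435 to 452 with Y640F. Of these 10 genes 4, 4 and 6 reached 1 CPM in HPCLSK with empty vector, STAT3 and Y640F, and 1 in each HPC7 group. The T-cell genes Cd3e, Cd2 and Cd8a and the B-cell genes Ms4a1 and Pax5 were at 0 in all 6 groups. Other genes of these lists were detected. Summed CPM of 8 B-cell genes ran from 5.80 to 7.47 over the HPC7 libraries and from 1.15 to 3.27 over the HPCLSK libraries. Cd79b averaged 6.11 to 6.51 CPM over the HPC7 groups and 1.8 in HPCLSK with empty vector. Sums of the T-cell and NK-cell genes, led by Lck in HPC7 and Nkg7 in HPCLSK, are given with Cxcr3 below. Summed CPM of 12 monocyte, macrophage and dendritic genes ran from 41.1 to 52.1 over the HPC7 libraries. In HPCLSK that sum was 879 to 1143 with empty vector, 1188 to 2190 with STAT3 and 6546 to 9899 with Y640F, where Lyz2 led with a mean of 6041 CPM. Of those genes 11, 11 and 12 reached 1 CPM in these groups, and 6 to 8 in the HPC7 groups. The part of these marker changes in the receptor results was not tested. Replicate 1 of HPCLSK Y640F stood apart from its group, with a chi-square of the counts per degree of freedom of 21.3 and 27.0 against the other two, which differed from each other by 3.30. Replicate 1 of HPCLSK empty vector did so to a lesser degree (10.6 and 8.06, against 2.49), and the 3 HPC7 empty-vector libraries differed from each other by 10.3 to 20.2.

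With empty vector the lines already carried different sets of receptors, as the plot of CPM in each library shows. Per kilobase of exon, Cxcr3 made up 53.6% of the summed level of the 7 receptors in HPC7 with empty vector, Cxcr2 20.1%, Cxcr4 11.4% and Ccr2 8.61%. In HPCLSK with empty vector, Cxcr4 made up 56.6% and Ccr2 38.0%, while Cxcr3 made up 0.820%. The summed level was 25.4 ± 1.12 CPM per kb in HPC7 and 91.5 ± 5.95 in HPCLSK (SD, n = 3). These shares come from whole cultures, in which fewer cells of a type and less RNA per cell cannot be told apart.

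**Figure D1:**
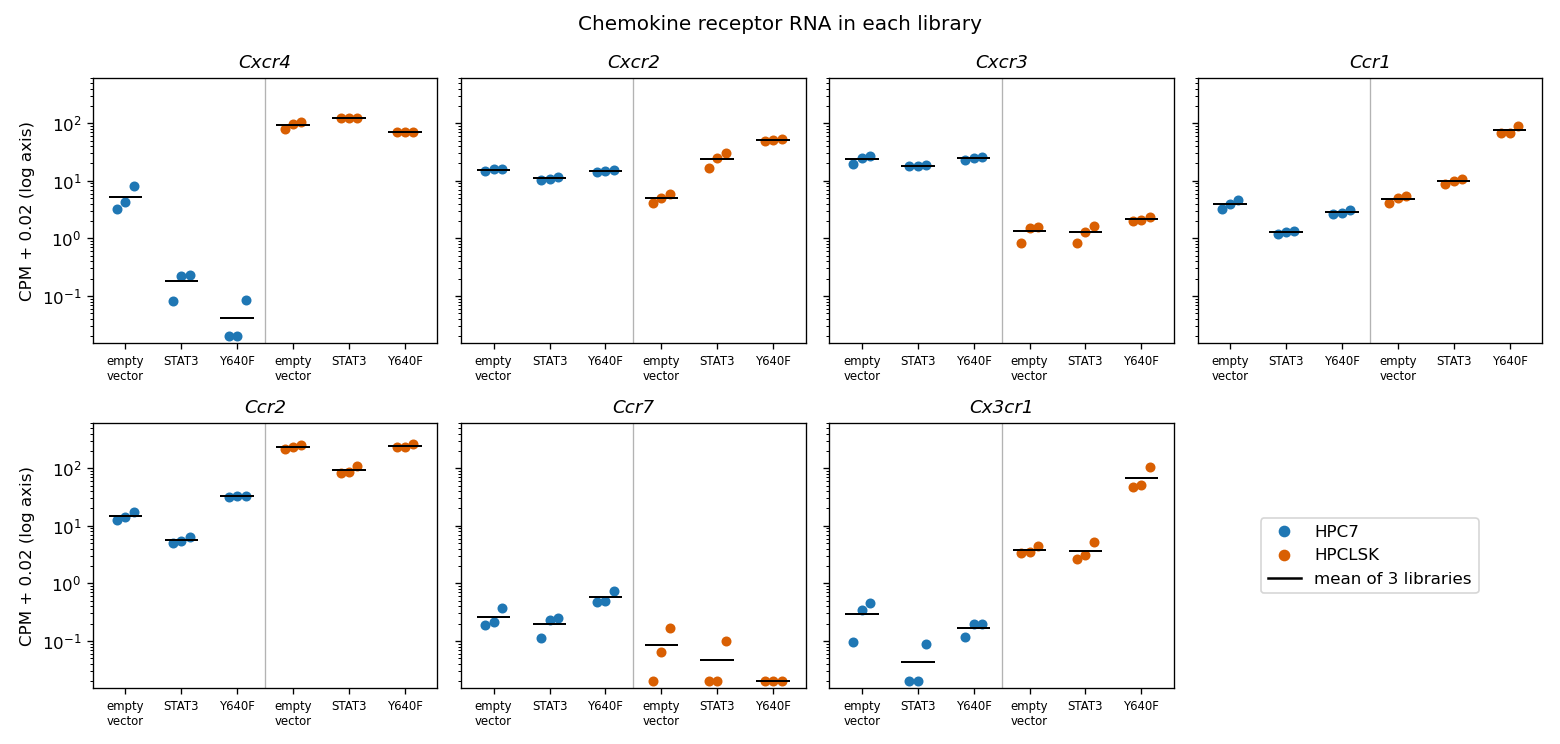
CPM (plus 0.02, on a log axis) of the 7 receptors in each of the 18 libraries, with points ordered by value within a group and a bar at the mean of 3 libraries. Cxcr4 stood near 100 CPM in HPCLSK and below 10 in HPC7, Cxcr3 showed the opposite order, and Cx3cr1 and Ccr1 were highest in HPCLSK with Y640F.

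A gene was called where edgeR's quasi-likelihood test gave a Benjamini-Hochberg adjusted p under 0.05 over all genes tested and the log2 fold change was at least 1 in size. Between the empty-vector groups, 3 members were higher in HPCLSK (Cxcr4, Ccr2, Cx3cr1) and 3 lower (Cxcr3, Cxcr2, Ccr7) of the 7 tested, where 36.4% of all genes tested were called (22.8% higher, 13.6% lower). Within a line 6 of 7 members passed the low-count filter, Cx3cr1 being too low in HPC7 and Ccr7 in HPCLSK. With STAT3 in HPC7, 0 members rose and 3 fell (Cxcr4, Ccr1, Ccr2), against 7.22% of all genes called (1.81% higher, 5.41% lower). With Y640F in HPC7, 2 rose (Ccr2, Ccr7) and 1 fell (Cxcr4), against 8.18% (4.54% and 3.64%). Ccr7 passed the filter in HPC7 only through Y640F, with 21, 18 and 56 reads for empty vector, STAT3 and Y640F. The filter thus favours counting Ccr7 as higher with Y640F, here and against STAT3. Cxcr4 passed it in HPC7 only through empty vector, with 437, 16 and 2 reads for empty vector, STAT3 and Y640F. That favours counting Cxcr4 as lower in both HPC7 contrasts with empty vector. With STAT3 in HPCLSK, 2 rose (Cxcr2, Ccr1) and 1 fell (Ccr2), against 4.6% (2.8% and 1.79%). With Y640F in HPCLSK, 3 rose (Cx3cr1, Ccr1, Cxcr2) and 0 fell, against 16.2% (9.62% and 6.57%). Y640F was above STAT3 for 3 members in HPC7 (Ccr2, Ccr7, Ccr1; of all genes 7.89% called, 6.17% higher and 1.73% lower) and for 4 in HPCLSK (Cx3cr1, Ccr1, Ccr2, Cxcr2; of all genes 14.2%, 8.11% higher and 6.09% lower), and below it for 0 in either. The median log2 fold change of the members tested was -0.96 with STAT3 and 0.01 with Y640F in HPC7, and 0.23 and 2.00 in HPCLSK, beside medians of all genes between -0.006 and 0.001. The 2 comparisons with empty vector in a line share their control libraries.

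**Figure D2:**
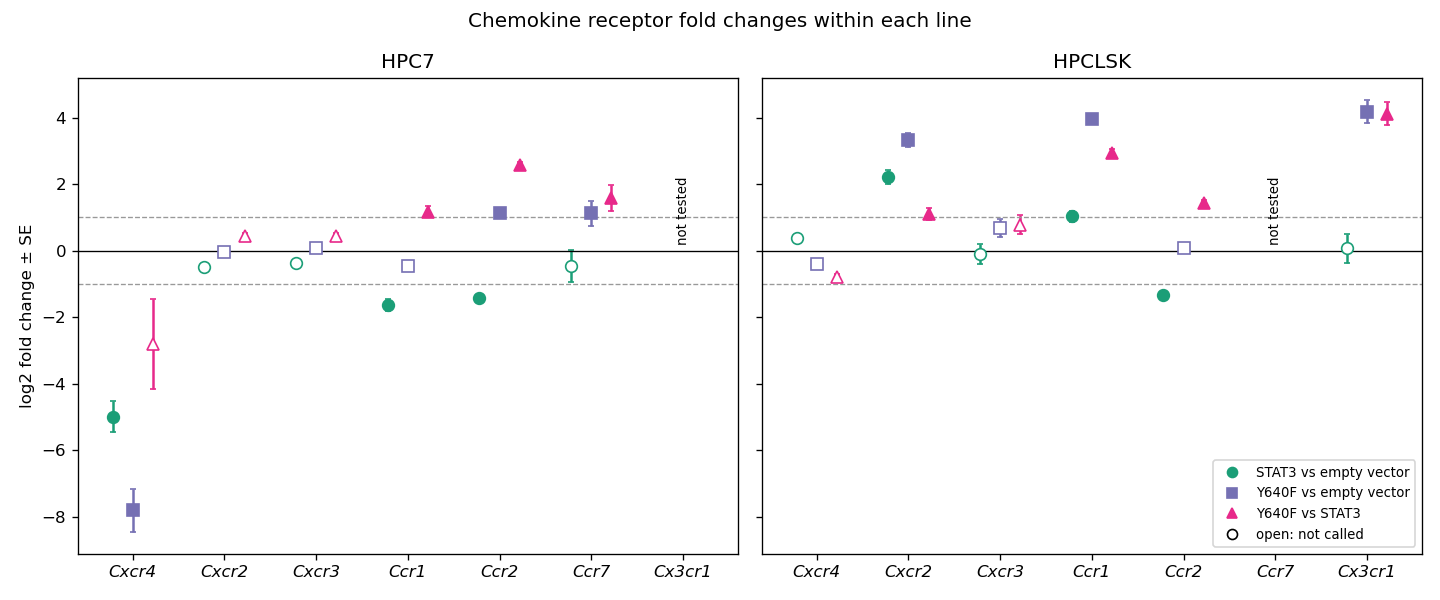
Log2 fold changes with standard errors for each receptor in HPC7 (left) and HPCLSK (right), filled where called, with dashed lines at the fold limit. In HPC7 the largest values are the negative ones of Cxcr4, and in HPCLSK the positive ones of Cx3cr1, Ccr1 and Cxcr2 with Y640F.

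Summed over the 7 receptors, the level per kb in HPC7 was 15.7 ± 0.43 CPM per kb with STAT3 and 25.2 ± 0.84 with Y640F. Cxcr3 remained its main part there, with 67.8% and 56.4%. In HPCLSK the sum was 94.1 ± 1.62 with STAT3, of which Cxcr4 made up 72.0%. With Y640F it was 135 ± 14.7 and spread over 5 receptors, namely Cxcr4 with 28.9%, Ccr2 with 26.9%, Ccr1 with 19.6%, Cxcr2 with 12.4% and Cx3cr1 with 11.3%.

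**Figure D3:**
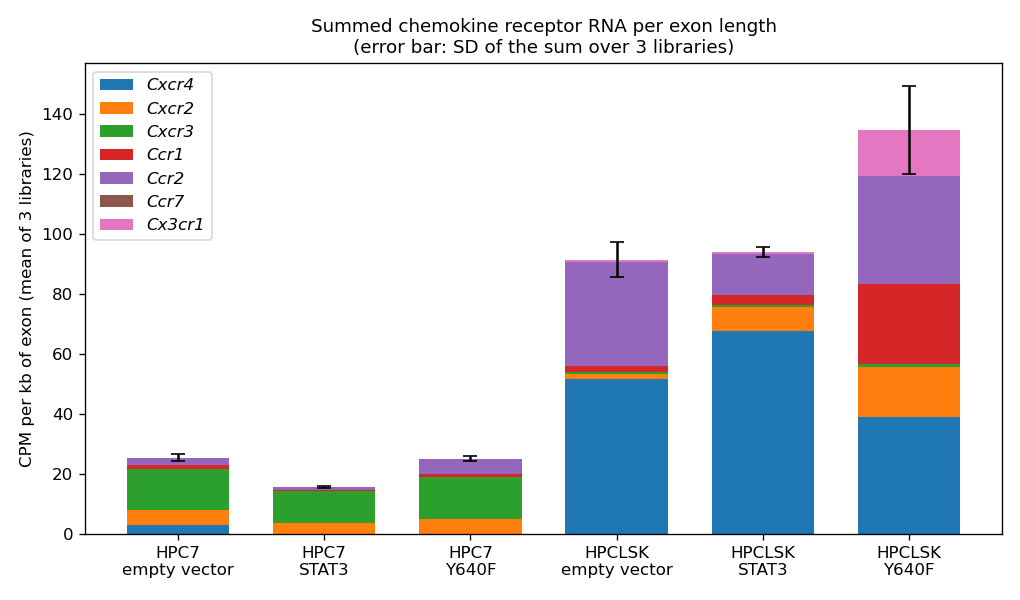
Summed level of the 7 receptors per kilobase of exon, as the mean of 3 libraries with the SD of the sum, and the part of each receptor stacked. Cxcr3 fills most of the HPC7 bars, Cxcr4 and Ccr2 most of the HPCLSK empty-vector and STAT3 bars, and 5 receptors share the HPCLSK Y640F bar.

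Cxcr4 RNA was nearly lost from HPC7 with STAT3 or Y640F and stayed high in HPCLSK. The gene (ENSMUSG00000045382.6) lies on the minus strand of chromosome 1, at 128588199 to 128592293 (GRCm38). The HPC7 empty-vector libraries held 8.18, 3.25 and 4.34 CPM, the STAT3 libraries 0.0609, 0.215 and 0.202, and the Y640F libraries 0.0655, 0 and 0. No STAT3 or Y640F library reached the lowest empty-vector library, while STAT3 and Y640F overlapped. In counts, 437 reads with empty vector stood against 16 with STAT3 and 2 with Y640F. The level was 32.1-fold lower with STAT3 than with empty vector (log2 fold change -5.00 ± 0.47, adjusted p = 1.2e-06). For Y640F the ratio of empty vector to Y640F was 272, with a 95% exact binomial interval of 74.8 to 2251 that covers counting error only, and the adjusted p was 2.8e-07. Both Y640F reads came from replicate 1, without which the group held 0 reads and the call stood (adjusted p = 8.7e-06). Y640F and STAT3 differed by a ratio of 8.34 (1.96 to 74.8), which missed the threshold (adjusted p = 0.10) and passed it with DESeq2 (0.020) or with no low-count filter (0.0017).

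The 793 genes of chromosome 1 tested in HPC7 had a median log2 fold change of -0.35 with STAT3 and -0.34 with Y640F, where the median of all genes was near 0. The part of that shift in the Cxcr4 and Cxcr2 values was not tested.

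In HPCLSK, the Cxcr4 libraries held 80.5, 104.9 and 95.5 CPM for empty vector, 122, 125 and 121 for STAT3 and 69.0, 71.3 and 71.0 for Y640F. The 3 groups did not overlap, STAT3 being the highest and Y640F the lowest. All 3 differences passed the adjusted p and stayed under the fold limit, with 0.39 ± 0.08 for STAT3 (0.0082), -0.40 ± 0.08 for Y640F (0.0014) and -0.79 ± 0.08 for Y640F against STAT3 (2.0e-05). With empty vector, Cxcr4 was 17.9-fold higher in HPCLSK than in HPC7 (log2 4.16 ± 0.18, adjusted p = 1.3e-13). The fold changes of the lines differed by 5.37 ± 0.45 for STAT3 and 7.33 ± 0.67 for Y640F on the log2 scale (adjusted p = 5.3e-08 and 5.5e-08). Members called in these differences numbered 3 of 7 for STAT3, all positive, where 8.25% of genes were called (6.16% positive, 2.09% negative). For Y640F they numbered 5 of 7, 4 positive and 1 negative, where 15% were called (7.74% and 7.25%). The ligand Cxcl12 was at 0 in all groups but HPCLSK with STAT3, where it averaged 0.0271 CPM.

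Cxcr2, the neutrophil receptor, rose with both proteins in HPCLSK and in neither case in HPC7. It lies on the plus strand of chromosome 1, at 74153989 to 74161246 (ENSMUSG00000026180.8). HPCLSK libraries held 4.17, 5.93 and 4.97 CPM for empty vector, 30.6, 16.4 and 24.9 for STAT3 and 53.0, 48.7 and 50.9 for Y640F. The 3 groups stood apart in steps, and the STAT3 libraries had the widest spread. The rise was 4.63-fold with STAT3 (log2 2.21 ± 0.22, adjusted p = 1.0e-04) and 10.0-fold with Y640F (3.32 ± 0.21, 6.0e-07). Y640F exceeded STAT3 2.16-fold (1.11 ± 0.18, 4.7e-04), a difference that fell to 0.87 and under the fold limit without STAT3 replicate 2. Summed CPM of 12 neutrophil genes ran from 8340 to 12980 with empty vector, 14890 to 22400 with STAT3 and 13200 to 18070 with Y640F. Of the 12, 11 reached 1 CPM with empty vector and with STAT3 and 10 with Y640F. Mpo, the highest of them, averaged 7923, 11310 and 4677 CPM in these groups, so that it was lowest with Y640F, where Cxcr2 was highest. In HPC7 the sum was 374 to 707 with empty vector, 283 to 308 with STAT3 and 139 to 161 with Y640F, with 4 of the 12 at 1 CPM or more in each group and Retnlg at 0 in all 3. Their part in the Cxcr2 result was not tested.

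In HPC7, Cxcr2 libraries held 14.6, 16.3 and 15.8 CPM for empty vector, 11.6, 10.8 and 10.5 for STAT3 and 15.4, 14.4 and 14.7 for Y640F. The STAT3 libraries lay below the rest, whereas Y640F and empty vector overlapped. STAT3 differed from empty vector by -0.51 ± 0.07 (adjusted p = 5.2e-05), under the fold limit, and Y640F by -0.05 ± 0.07 (0.52). The differences between the lines were 2.70 ± 0.23 for STAT3 and 3.38 ± 0.22 for Y640F (5.3e-08 and 8.4e-10). Empty-vector HPCLSK held 3.04-fold less Cxcr2 than empty-vector HPC7 (-1.60 ± 0.17, 6.7e-08), so that the order of the lines was turned round in the STAT3 and Y640F groups.

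Cxcr3 differed far more between the lines than between the vectors. The gene (ENSMUSG00000050232.6) is on the minus strand of the X chromosome, at 101731535 to 101734269. HPC7 libraries held 19.3, 26.5 and 25 CPM for empty vector, 18.9, 17.9 and 18.3 for STAT3 and 24.8, 26.1 and 22.9 for Y640F. HPCLSK libraries held 0.818, 1.52 and 1.56 CPM for empty vector, 0.814, 1.28 and 1.65 for STAT3 and 1.96, 2.09 and 2.30 for Y640F. Every HPC7 library was above every HPCLSK library. With empty vector the difference was 17.5-fold (-4.13 ± 0.17, adjusted p = 5.1e-14). No contrast within a line was called. In HPC7, STAT3 stood at -0.36 ± 0.10 against empty vector (0.0064) and Y640F at 0.08 ± 0.09 (0.50), and in HPCLSK the values were -0.10 ± 0.31 (0.87) and 0.68 ± 0.28 (0.054). Y640F against STAT3 passed the adjusted p under the fold limit, with 0.44 ± 0.09 (0.0014) in HPC7 and 0.78 ± 0.29 (0.042) in HPCLSK. Cxcr3 was the only member among the 7 with none of its 6 contrasts within the lines called. The 403 genes of the X chromosome tested in HPC7 had a median log2 fold change of -0.15 with STAT3 and -0.05 with Y640F. For Y640F against STAT3 that median was 0.13. The part of that shift in the Cxcr3 values was not tested. T-cell and NK-cell genes summed to 8.97 to 15.9 CPM over the HPC7 libraries, most of it Lck, while Cd3e, Cd2, Cd8a and Ncr1 were at 0. In HPCLSK, where Cxcr3 was lower, the same sum was higher, at 242 to 262 CPM with empty vector, 269 to 297 with STAT3 and 18.3 to 37.8 with Y640F, most of it Nkg7. Of its ligands, Cxcl11 was at 0 in all groups and Cxcl9 in all but HPCLSK with STAT3, and Cxcl10 ranged from 0.0102 to 0.648 CPM by group mean.

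Ccr1 moved in opposite directions in the lines with STAT3, and reached its highest level in HPCLSK with Y640F. It lies on the minus strand of chromosome 9, at 123962124 to 123968692 (ENSMUSG00000025804.5). HPC7 libraries held 4.71, 3.98 and 3.23 CPM for empty vector, 1.19, 1.26 and 1.35 for STAT3 and 3.05, 2.75 and 2.68 for Y640F. No library of one group fell in the range of another. STAT3 lowered it 3.11-fold (-1.64 ± 0.17, adjusted p = 3.4e-06), and Y640F differed from empty vector by -0.47 ± 0.15 (0.017), under the fold limit. Y640F was 2.25-fold above STAT3 (1.17 ± 0.17, 7.5e-05).

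In HPCLSK, Ccr1 libraries held 5.43, 5.04 and 4.16 CPM for empty vector, 10.1, 10.6 and 8.78 for STAT3 and 90.3, 67.7 and 67.0 for Y640F. These groups again stood apart, and replicate 1 of Y640F was above its fellows. The level was 15.5-fold higher with Y640F than with empty vector (3.95 ± 0.15, adjusted p = 4.0e-08) and 7.57-fold higher than with STAT3 (2.92 ± 0.14, 1.8e-07). Without replicate 1 of Y640F and of empty vector the first of these was 3.84. STAT3 stood 2.05-fold above empty vector (1.03 ± 0.17, 0.0021), just past the fold limit, and under it without empty-vector replicate 3 (0.93) or STAT3 replicate 2 (0.97). The difference between their empty-vector levels missed the threshold (0.30 ± 0.17, 0.097). The lines differed in the response to STAT3 by 2.66 ± 0.24 and in that to Y640F by 4.43 ± 0.22. The summed monocyte and macrophage genes were also highest in HPCLSK with Y640F, as given above, and their part in the Ccr1 and Cx3cr1 results was not tested.

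Ccr2 fell with STAT3 in both lines. The gene lies on the plus strand of chromosome 9, at 124101950 to 124113557 (ENSMUSG00000049103.14). HPC7 libraries held 12.8, 14.4 and 17.2 CPM for empty vector, 6.28, 5.35 and 5.01 for STAT3 and 31.2, 32.6 and 33.6 for Y640F. The groups did not overlap, with STAT3 lowest and Y640F highest. The fall with STAT3 was 2.68-fold (-1.42 ± 0.11, adjusted p = 2.5e-07), the rise with Y640F 2.21-fold (1.15 ± 0.09, 2.5e-07), and Y640F exceeded STAT3 5.93-fold (2.57 ± 0.11, 4.1e-10).

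In HPCLSK, Ccr2 libraries held 255, 234 and 216 CPM for empty vector, 81.1, 107 and 85.8 for STAT3 and 268, 233 and 234 for Y640F. Only the STAT3 libraries stood apart, and empty vector and Y640F overlapped. STAT3 lowered Ccr2 2.55-fold (-1.35 ± 0.11, 2.3e-05), while Y640F differed from empty vector by 0.07 ± 0.10 (0.59). Y640F exceeded STAT3 2.67-fold (1.42 ± 0.11, 2.8e-06). The response to STAT3 differed between the lines by only 0.07 ± 0.17 (0.83), the smallest such difference among the 7 members. For Y640F the difference was -1.07 ± 0.15 (8.3e-06), which was -0.98 without HPC7 empty-vector replicate 1. In the contrast of Y640F with STAT3 it was -1.14 ± 0.16 (1.5e-05), or -0.99 without HPCLSK STAT3 replicate 2, and 2 of 7 members were called there, 1 positive and 1 negative, against 12.5% of genes (4.48% and 8%). With empty vector, HPCLSK held 15.8-fold more Ccr2 than HPC7 (3.98 ± 0.11, 2.1e-16). Of its ligands, Ccl2 averaged 0.507 ± 0.269 CPM in HPCLSK with empty vector and 5.74 ± 0.404 with Y640F (SD, n = 3), a called rise of 3.58 ± 0.28 on the log2 scale, and Ccl7 stayed at or below 0.372 CPM.

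Ccr1 and Ccr2 belong to a cluster of receptor genes on chromosome 9, with 133257 bases between them. Receptor genes of this cluster have closely related coding sequences, such as Ccr1 and Ccr1l1, and reads of 50 bases could be shared between such copies, so the levels of Ccr1 and Ccr2 are uncertain to that extent. Ccr1l1, between Ccr1 and Ccr2, stayed between 0.0163 and 0.617 CPM by group mean. Ccr3, next to it, averaged at most 0.504 CPM and Xcr1 was at 0 in all groups.

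Cx3cr1, the fractalkine receptor of monocytes and macrophages, rose in HPCLSK with Y640F and not with STAT3. It lies on the minus strand of chromosome 9, at 119901616 to 120069879 (ENSMUSG00000052336.7), and shares no exon bases with the 3 same-strand genes in its span. HPCLSK libraries held 3.42, 4.42 and 3.35 CPM for empty vector, 3.09, 5.28 and 2.68 for STAT3 and 106, 48.1 and 51.3 for Y640F. Empty vector and STAT3 overlapped, and replicate 1 of Y640F was the highest library by far. Y640F stood 18.2-fold above empty vector (4.18 ± 0.35, adjusted p = 3.5e-06) and 17.4-fold above STAT3 (4.12 ± 0.36, 7.0e-06). Without replicate 1 of Y640F and of empty vector, the log2 values were 3.64 and 3.62, both still called. STAT3 differed from empty vector by 0.06 ± 0.44 (0.95).

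In HPC7, Cx3cr1 libraries held 0.0772, 0.428 and 0.321 CPM for empty vector, 0, 0 and 0.0673 for STAT3 and 0.0982, 0.179 and 0.175 for Y640F. These are 23, 2 and 16 reads per group, and the gene was not tested within this line. By counts, the ratio of empty vector to STAT3 was 13.7 (95% exact binomial interval 3.39 to 120) and that of Y640F to STAT3 7.67 (1.80 to 68.8). Between the lines, HPCLSK with empty vector held 13.5-fold more (3.76 ± 0.54, adjusted p = 3.2e-06). The lines differed in the response to Y640F by 4.99 ± 1.08 (8.0e-04). For STAT3 the difference of 3.53 ± 1.49 missed the threshold (0.084), and it passed with DESeq2 (3.77, 0.0051), without a low-count filter (3.50, 1.4e-05) and without replicate 1 of HPCLSK Y640F (0.0075). Its ligand Cx3cl1 showed the reverse order of the lines, with 18.5 ± 3.17 CPM in HPC7 and 2.45 ± 0.167 in HPCLSK with empty vector, and in HPCLSK it fell with Y640F by 1.46 on the log2 scale (SE 0.34, 0.0035).

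Ccr7 was at the edge of detection. The gene is on the minus strand of chromosome 11, at 99144196 to 99155077 (ENSMUSG00000037944.8). HPC7 libraries held 0.193, 0.171 and 0.350 CPM for empty vector, 0.0914, 0.215 and 0.235 for STAT3 and 0.720, 0.478 and 0.450 for Y640F. The Y640F libraries lay above the rest, and empty vector and STAT3 overlapped. Only through its Y640F libraries did the gene pass the low-count filter in HPC7. The rise with Y640F was 2.18-fold (1.12 ± 0.38, adjusted p = 0.021). With DESeq2 the adjusted p was 0.085, and the call was also lost without empty-vector replicate 1 (0.062) or 2 (0.067) or Y640F replicate 1 (0.084). Y640F exceeded STAT3 3.00-fold (1.58 ± 0.39, 0.0038). In HPCLSK, 3 reads were counted for empty vector, 1 for STAT3 and 0 for Y640F, so no change with STAT3 or Y640F was detectable at this depth. The ratio of HPC7 to HPCLSK with empty vector was 4.45 (1.33 to 23.3; adjusted p = 0.024). That call was lost with DESeq2 (0.080), and without HPC7 empty-vector replicate 3 (0.11) or HPCLSK empty-vector replicate 2 (0.088) or 3 (0.095). Without HPCLSK empty-vector replicate 1 the fitted log2 difference moved from -2.04 to -3.07. Its ligands Ccl19 and Ccl21a were at 0 in all groups.

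Ranked by mean level, the 6 groups came in different orders for different members. For Ccr1 the order ran from HPCLSK with Y640F (75.0 ± 13.3 CPM) over HPCLSK with STAT3 (9.81 ± 0.924) and empty vector (4.88 ± 0.649) to HPC7 with empty vector (3.97 ± 0.738), Y640F (2.82 ± 0.195) and STAT3 (1.27 ± 0.0785), and the empty-vector groups of the lines overlapped. For Cxcr4 the highest was HPCLSK with STAT3 (122 ± 1.85 CPM) and the lowest HPC7 with Y640F (0.0218 ± 0.0378), which overlapped HPC7 with STAT3. For Cxcr2, HPC7 with empty vector (15.6 ± 0.891) and Y640F (14.8 ± 0.512) overlapped in the middle of the order, and HPCLSK with empty vector (5.02 ± 0.884) was lowest. Across contrasts, the 3 libraries of one group did not overlap the 3 of the other for 5 of 6 members tested with STAT3 in HPC7 and 4 of 6 with Y640F, where 55.7% and 60.9% of all genes tested did not overlap. In HPCLSK these were 4 of 6 against 37.1% for STAT3 and 5 of 6 against 65.9% for Y640F.

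Some other receptors of the family rose in HPCLSK with Y640F, to group means of at most 5.65 CPM. Of 20 further chemokine and chemoattractant receptors listed, 7 passed the filter in HPCLSK, and with Y640F 5 rose and 0 fell, with a median log2 fold change of 2.32 beside -0.006 for all genes, of which 16.2% were called (9.62% higher, 6.57% lower). Among them were Gpr35 (4.88 ± 0.42), Ccr10, the skin-homing receptor for Ccl27 and Ccl28 (3.60 ± 0.57), the atypical receptor Ackr1, which binds chemokines without G-protein signalling (2.32 ± 0.39), and the chemerin receptor Cmklr1, with 99 reads against 2, a ratio of 52.0 (14.0 to 436). The filter admits a gene on the reads of 1 group alone. Cmklr1 and Gpr35 had 2 and 6 reads with empty vector against 99 and 176 with Y640F, which pushes this count and median towards rises. S1pr1, named for being the highest of the list, averaged 40.0 ± 3.045 CPM with empty vector and 20.5 ± 3.07 with Y640F and was not called. With STAT3 1 rose (Ccr10, 3.12 ± 0.61) and 1 fell (Gpr183, -2.58 ± 0.41), against 4.6% of all genes called. In HPC7, 8 were tested, of which 1 rose with STAT3 (Cxcr5, 1.02 ± 0.23; 7.22% of all genes called) and with Y640F 2 rose (Ccr1l1, 1.31 ± 0.37, and Ccr9, 1.27 ± 0.24) and 0 fell (8.18% of all genes called).

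Among 22 chemokine ligands, 11 were tested in HPCLSK. With Y640F 5 rose and 3 fell, with a median of 0.85, against 16.2% of all genes called (9.62% higher, 6.57% lower). The 3 that fell, named after their values were seen, were Cx3cl1, given above, Ppbp, a ligand of Cxcr2 (-1.55 ± 0.41), and the platelet chemokine Pf4 (-1.42 ± 0.14, from 220 ± 38.4 to 81.7 ± 6.90 CPM). Ligands of Cxcr2 thus moved both ways, since Cxcl2, another of them, rose by 5.04 ± 0.58 to 10.6 ± 5.04 CPM. The Ccr1 ligands Ccl3 and Ccl6 rose by 4.19 ± 0.28 and 3.92 ± 0.22, to 24.5 ± 4.51 and 43.1 ± 12.4 CPM. Its ligands Ccl5 and Ccl9 were not called. With empty vector and Y640F, Ccl5 averaged 1.48 ± 0.262 and 1.33 ± 0.963 CPM and Ccl9 201 ± 14.8 and 359 ± 143 CPM. The chemokine Ccl4 rose by 5.02 ± 0.49. Cxcl2, Ccl2 and Ccl4 had 17, 25 and 24 reads with empty vector against 525, 292 and 718 with Y640F. Since the filter admits a gene on the reads of 1 group alone, this can push the ligand count and median towards rises. Ppbp, with 44 reads against 14, stood the other way. With STAT3 in HPCLSK 2 rose, Ccl6 by 1.33 ± 0.25 and Ccl3 by 1.21 ± 0.34, and 0 fell, against 4.6% of all genes called. In HPC7, 8 ligands were tested, and with STAT3 0 rose and 3 fell, namely the Ccr1 ligands Ccl3 (-1.51 ± 0.17), Ccl9 (-1.41 ± 0.19) and Ccl6 (-1.39 ± 0.52), where 5.41% of all genes were called lower. With Y640F in HPC7, Ccl5 rose by 2.53 ± 0.18, and Ccl9 (-1.82 ± 0.19) and Ppbp (-1.0 ± 0.24) fell, against 8.18% of all genes called.

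Of 48 genes of receptor coupling, desensitization and adhesion, 47 were tested in HPCLSK. With Y640F 8 rose and 1 fell there, with a median of 0.38, a share near the 16.2% of all genes called, so the count is no result about this list. The formyl peptide receptors Fpr1 (6.72 ± 0.41) and Fpr2 (4.22 ± 0.30), which guide neutrophils to bacterial peptides, rose. So did Rgs16, a brake on G-protein signalling (2.95 ± 0.55). Pik3r6, a regulatory subunit of PI3-kinase gamma, fell (-3.45 ± 0.38), from a mean of 7.6 to 0.716 CPM. The other regulatory subunit, Pik3r5, named after its values were seen, rose (2.64 ± 0.24), from 5.69 to 35.6 CPM. With STAT3 1 rose (Fpr2, 1.64 ± 0.32) and 2 fell, Pik3r6 (-6.22 ± 0.55) and the other regulatory subunit Pik3r5 (-2.17 ± 0.36), against 4.6% of all genes. In HPC7, where 43 were tested, 3 fell with STAT3, the integrin chain Itgam (-1.47 ± 0.15), Rgs2 (-1.33 ± 0.13) and the G-protein subunit Gng2 (-1.06 ± 0.06), which is again near the share of all genes called (7.22%). With Y640F 1 rose there, Pik3r5 with 160 reads against 1, a ratio of 129 (22.8 to 5114), and 0 fell, against 8.18% of all genes. Its Y640F libraries were uneven, at 1.59 ± 1.24 CPM, which that interval of counting error does not cover. With 1 read each for empty vector and STAT3, Pik3r5 passed the filter in HPC7 only through Y640F. Grk3, a kinase that desensitizes receptors including Cxcr4, was chosen after its values were seen: it had 0 reads in HPC7 and 10638 in HPCLSK with empty vector, at least 5577-fold higher taking 3 counts over the group as the floor.

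The genes most like each member over the 18 libraries were found by Pearson's r of log2(CPM + 0.5) among 11268 genes, and since the libraries form 6 groups from 2 lines, r is a description. Ccr1 was most like the interleukin-1 receptor Il1r1 (r = 0.983), Lrrc25 (0.981) and Emp1 (0.980). Cx3cr1 was most like Gsap (0.995), the Toll-like receptor Tlr2 (0.995) and Mvp (0.994), and Cxcr4 was most like the interleukin-10 receptor chain Il10ra (0.991), Gng12 (0.991) and Pcmtd1 (0.991). Il10ra stood at 3.13 CPM in HPC7 for empty vector, 0.0112 for STAT3 and 0.0292 for Y640F, and at 63.0 to 94.1 CPM in HPCLSK, by group mean. Ccr2 was most like Frrs1 (0.990), Dhx58 (0.987) and Usp27x (0.983), and Cxcr3 like Spire1 (0.993), Prr5 (0.992) and Nhp2 (0.992). Cxcr2 had the lowest of these values, with Cd300lf (0.922), Fam160a2 (0.908) and Stxbp2 (0.906). Ccr7 was left out, being under 1 CPM in every group.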

How the data were processed

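Messenger RNA of 18 libraries (6 groups of 3) was sequenced single-end at 50 bases, while 12 chromatin samples of HPC7 were not used here. The authors deposited raw counts of reads per gene. Per the file headers, the authors counted them over exons with featureCounts 1.5.1 at strand setting 2. The submitters' processing notes name STAR, Trimmomatic and GRCm38 (mm10), and the series text names GENCODE M13. That text and the sample protocols name different library kits.

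Of 50686 gene IDs, 50376 matched a symbol. Tests were run in R 4.3.3 with edgeR 4.0.16 (TMM, filterByExpr, quasi-likelihood test, Benjamini-Hochberg adjustment), in the 9 libraries of a line (6 residual degrees of freedom before moderation), or in all 18 (12) for comparisons between lines. CPM were scaled over 18 libraries. Scaling within a line changed them by at most 2.5%. Errors are SD for CPM and SE for log2 fold changes. Ratios of few reads carry 95% exact binomial intervals, which cover counting error only. Of the fits, only that of edgeR for Y640F against empty vector within each line was tested on simulated counts. Same-numbered libraries did not deviate together (correlations from -0.15 to 0.07, of which 0 of 9 in each line exceeded 0.1), so the numbers were not used as a block. Alternatives were DESeq2 1.42.0, other scaling and filters, a fold-threshold test, only the libraries compared, and left-out libraries. The members and the lists of receptors, ligands, signalling genes and cell markers were chosen with earlier results of these data known. Some genes of these lists are not reported here and are not in their counts. Named from each list were up to 4 called genes with the largest fold change per contrast within a line, and as like each member the 3 genes with the highest r.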

Additional observations from a re-analysis of the deposited data

Results flagged for a closer look

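For 10 contrasts of the members the response differed between the lines, by edgeR's test of the difference itself over 18 libraries (HPCLSK minus HPC7, log2 scale, SE). For STAT3 against empty vector these were Ccr1 (2.66 ± 0.24), Cxcr2 (2.70 ± 0.23) and Cxcr4 (5.37 ± 0.45). For Y640F against empty vector they were Ccr1 (4.43 ± 0.22), Ccr2 (-1.07 ± 0.15), Cxcr2 (3.38 ± 0.22), Cxcr4 (7.33 ± 0.67) and Cx3cr1 (4.99 ± 1.08). For Y640F against STAT3 they were Ccr1 (1.76 ± 0.24) and Ccr2 (-1.14 ± 0.16). In the first of these contrasts 4 of the 7 members were not called, in the second 2 (Cxcr3 and Ccr7) and in the third 5. Of all genes tested, 8.25%, 15% and 12.5% were called in these 3 differences.

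The Stat3 RNA response differed between the lines as well, by -1.39 ± 0.07 for STAT3, 0.85 ± 0.07 for Y640F and 2.24 ± 0.07 for Y640F against STAT3, and its part in these differences was not tested. The differences of Cxcr4 and Cx3cr1 rest on few reads in HPC7, where the Y640F groups held 2 and 16. On chromosome 1, which holds Cxcr4 and Cxcr2, the median difference over 867 genes was 0.43 for STAT3 and 0.33 for Y640F.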

How the results depend on the processing

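Of 64 member results, 45 kept their direction and their side of the threshold under every alternative run, and of 1092 values under alternatives 1047 did so, 9 passed the threshold newly, 23 lost it and 13, all of results not called, turned in sign. A test against the 2-fold limit itself (glmTreat) lowered the genes called to 431, 487 and 488 in HPC7 (STAT3 and Y640F against empty vector, Y640F against STAT3), to 213, 1201 and 924 in HPCLSK, and to 474, 967 and 691 for the differences between lines. It left 1 of 6 members called for Y640F against empty vector in HPC7, where 487 of 12683 genes were called. For Y640F against STAT3 it left 1 of 6 there (488 of 12683 genes) and 1 of 7 for the difference between lines (691 of 13891 genes). The main numbers of genes called were 916, 1038 and 1001 in HPC7, 577, 2032 and 1783 in HPCLSK, and 1146, 2082 and 1734 for the differences. Calls that ended under it were Ccr2 (adjusted p = 0.43) and Ccr7 with Y640F in HPC7, Ccr1 and Ccr7 for Y640F against STAT3 in HPC7, Ccr1 with STAT3 and Cxcr2 for Y640F against STAT3 in HPCLSK, Ccr7 between lines, and both differences of Ccr2. Without a low-count filter 5 members were called for Y640F against STAT3 in HPC7. Leaving out 1 library gave 1 to 2 members called in the difference of that contrast, where 1629 to 1761 genes were called.

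Leaving out 1 library gave a range of -0.041 to 0.16 for Cxcr3 with Y640F in HPC7, -0.31 to 0.10 for Cxcr3 and -0.38 to 0.22 for Cx3cr1 with STAT3 in HPCLSK, and -0.022 to 0.11 for Ccr2 with Y640F in HPCLSK. Among the differences between lines the ranges were -0.069 to 0.17 for Ccr2 and -3.16 to 0.36 for Ccr7 with STAT3 (-0.66 ± 1.43 with all libraries), and -0.80 to 2.03 for Cx3cr1 in Y640F against STAT3 (1.46 ± 3.04 with all). Ccr7 with STAT3 was also 0.36 without replicate 1 of HPCLSK empty vector and Y640F together. Ccr7 with Y640F passed the threshold without HPC7 empty-vector replicate 3 (-5.09) or HPCLSK empty-vector replicate 3 (-5.24). The causes were not tested.

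With the replicate number as a block, Cxcr4 passed for Y640F against STAT3 in HPC7 (-2.82, adjusted p = 0.042). Between the empty-vector groups, the blocked fit gives the fitted difference at replicate 1, not the mean over replicates. Ccr7 stood at -0.63 (0.66) in that fit, which therefore cannot show whether a block changes its call between the lines. The other 62 of 64 kept their side of the threshold. Depth limits Ccr7 in both lines and Cxcr4 and Cx3cr1 in HPC7, at 0 to 23 reads in at least 1 group.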
